A study of Mus musculus with 16 samples.

Results

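Nociceptin, the enkephalins and the dynorphins are neuropeptides cut from the 3 precursors that the genes Pnoc, Penk and Pdyn encode. They act on 4 related receptors that couple to inhibitory Gi/o proteins, the nociceptin receptor (Oprl1) and the mu (Oprm1), delta (Oprd1) and kappa (Oprk1) opioid receptors. Nociceptin prefers the Oprl1 receptor, enkephalins prefer the delta and mu receptors, and dynorphins prefer the kappa receptor. The activated receptors open potassium channels, close calcium channels and lower cyclic AMP, which quiets the neuron or its terminals. In the hypothalamus these peptides are known for effects on feeding and on hormone release, and PNOC neurons, the cells that express Pnoc, are known in the arcuate nucleus as inhibitory neurons that promote feeding. These 7 genes were taken by symbol from a table of 45706 mouse genes, in which each had 1 row, and all 7 passed the filter on low counts in every comparison.

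RNA came from the hypothalamus of C57Bl/6N mice on chow, taken in the morning in the random-fed state at 12 weeks of age per the treatment protocol and at 10 to 12 weeks per the extraction protocol. Mice of all 4 groups carried a ribosomal protein L10a tagged with GFP that Cre switches on in Pnoc-expressing cells, so that an antibody against GFP pulls down the ribosomes of those cells with their RNA (bacTRAP). The controls, labelled Control (Lepr-flox), had a floxed leptin receptor gene, and the other mice, labelled Pnoc Lepr deletion, are described by their labels as having Lepr deleted in Pnoc-expressing cells. Hypothalami of 4 animals made a pool, and each pool gave an input library from the lysate before precipitation and a pulldown library. Control pools 1 to 4 and Lepr-deletion pools 5 to 8 thus formed 4 groups of 4 libraries. The sources used here do not say how Cre was introduced or which part of Lepr was removed.

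Library totals were 64435952 to 78623636 estimated counts, and the 7 genes had between 121 counts, for Pnoc in a Lepr-deletion input library, and 5638 counts, for Penk in a control pulldown library. Levels are CPM (counts in 1000000) scaled by TMM, which sets the bulk of genes equal between libraries, and a level of 3 counts was 0.0321 to 0.0562 CPM. The pulldown carried neuronal RNA. All 8 astrocyte, 8 oligodendrocyte and 8 microglia markers were lower in it, with medians of -4.39, -4.43 and -4.44 on the log2 scale in controls. Of 8 GABAergic markers 7 were higher and 1 lower, with a median of 1.03, against 30.1% of all genes higher and 34.6% lower. Of 2 tested glutamatergic markers 1 was higher and 1 lower. Of 18 hypothalamic peptide genes 10 were higher and 5 lower in controls. Those with the smallest p were Sst (2.13), Ghrh (2.39) and Cartpt (1.08), the first 2 above Pnoc (1.68). None of these markers was at 0 in all libraries of a group, and summed astrocyte markers were still 372 to 404 CPM in control pulldown. Lepr totals, which cannot show a deleted part, averaged 1.62 CPM in the 4 control pulldown libraries (SD 0.185) and 2.62 CPM (SD 0.171) in those labelled Lepr deletion, a log2 difference of 0.71 (SE 0.12, adjusted p = 0.0386). In input Lepr averaged 4.29 CPM (SD 0.696) and 6.03 CPM (SD 1.49), a log2 difference of 0.49 (SE 0.17, edgeR adjusted p = 0.229). With TMM, Lepr was lower in pulldown than in input, at -1.42 in controls and -1.22 in Lepr-deletion pools. The difference of these values was 0.2 (SE 0.22, edgeR adjusted p = 0.833), so the rise is not shown to be particular to the pulldown. Pool 1 stood apart from the other control pools. It was the lowest control for 6 of the 7 genes in input and for all 7 in pulldown, its 8 GABAergic markers averaged 5.03 on the log2 CPM scale in input against 5.3 to 5.37 in pools 2 to 4, and its 4 Y-linked genes 3.27 against 4.09 to 4.34. Pool 5 was the highest Lepr-deletion pool for 4 of the 7 genes in input and 5 in pulldown, and the lowest for 3 in input and 1 in pulldown. In Lepr-deletion input the Y-linked genes averaged 4.93 on the log2 CPM scale in pool 8, against 3.83 to 4.24 in pools 5 to 7. The part of pool makeup in the results was not tested.

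RefSeq (GRCm38.p6) gave a promoter for 4 of the 7 genes, and the 150 bases upstream of a start are shown because these genes moved differently between input and pulldown, Oprl1 and Oprm1 higher and, with TMM scaling, Pdyn lower and Oprd1 past no threshold. The windows are chr2:181714866-181715015 on the plus strand for Oprl1 and chr10:6788420-6788569 on the plus strand for Oprm1, each 1 of 3 starts in the table. They are chr2:129699939-129700088 on the minus strand for Pdyn, 1 of 2 starts, and chr4:132144487-132144636 on the minus strand for Oprd1. Capitals mark matches on either strand to 5 short motifs, spelled out after the sequences, and no matches overlapped.
Oprl1: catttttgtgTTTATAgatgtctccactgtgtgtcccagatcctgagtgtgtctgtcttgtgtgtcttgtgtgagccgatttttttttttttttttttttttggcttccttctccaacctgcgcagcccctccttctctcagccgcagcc
Oprm1: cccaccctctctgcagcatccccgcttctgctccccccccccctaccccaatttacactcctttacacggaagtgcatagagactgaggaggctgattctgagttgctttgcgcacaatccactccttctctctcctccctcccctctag
Pdyn: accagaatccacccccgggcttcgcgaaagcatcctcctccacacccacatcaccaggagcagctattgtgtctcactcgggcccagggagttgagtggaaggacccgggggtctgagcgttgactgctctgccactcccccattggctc
Oprd1: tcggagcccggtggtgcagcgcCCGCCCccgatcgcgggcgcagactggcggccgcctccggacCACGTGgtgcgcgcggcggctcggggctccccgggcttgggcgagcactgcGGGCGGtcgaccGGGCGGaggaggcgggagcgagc
The Oprd1 window was 81.3% G and C and held 3 GC boxes and 1 E box. The Oprl1 window was 45.3% G and C and held 1 TATA-type match, 140 bases before the start. None of these letters was in the Oprm1 window (57.3% G and C) or the Pdyn window (62.0%). Over all 32817 windows of 150 bases in the table, the GC box with the letters GGGCGG was found in 28.6%. The E box, searched as CANNTG and bound by basic helix-loop-helix proteins, was found in 47.7%. The TATA box, searched as TATAAA near starts of transcription, was found in 7.6%. A half-site of the cyclic AMP response element, searched as TGACG, was found in 13.3%, and the AP-1 motif, searched by the letters TGANTCA, in 4.2%. Pnoc (chromosome 14), Penk (chromosome 4) and Oprk1 (chromosome 1) had no entry and are shown by their values only.

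The first question was how the peptide and receptor messages on the ribosomes of PNOC neurons compared with those of hypothalamic tissue. In control mice Pnoc and Penk were higher in pulldown, by about 3.19-fold and 2.2-fold, Oprl1 and Oprm1 were higher by smaller factors, and Pdyn and Oprk1 were lower relative to the bulk of genes. Oprd1 did not pass the test. Thus 4 of 7 genes were higher, 2 lower and 1 uncalled by edgeR at an adjusted p of 0.05 over all 17570 genes. With library totals as the scale 4 were higher and 0 lower, and with log2(TPM + 1) or log2(TPM + 0.1) all 7 were higher, so a call of lower here holds only relative to the bulk of genes as TMM sets it. Of all calls, 46.5% were higher with TMM, 76.2% with library totals and 84.3% with log2(TPM + 1). Of the 17570 genes, 14044 were called with library totals and 15077 with log2(TPM + 1). A call of higher was thus common on those scales, and 7 of 7 is not read as a result about these genes. Of all genes tested, 64.8% passed with TMM, 30.1% higher and 34.6% lower, so a call was common and the count of 6 is not read as a result about these genes. The same 4 genes were higher and the same 2 lower in Lepr-deletion pools, where 61.6% of all genes passed, 28.8% higher and 32.8% lower. There library totals gave 4 higher and 1 lower, and both TPM scales 6 higher and 0 lower, with 46.8% of all calls higher under TMM, 74.4% under library totals and 84.1% under log2(TPM + 1). Of 17423 genes, 13438 were called with library totals and 14690 with log2(TPM + 1). These are bulk samples, in which fewer cells of a type and less RNA per cell cannot be told apart.

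**Figure D1:**
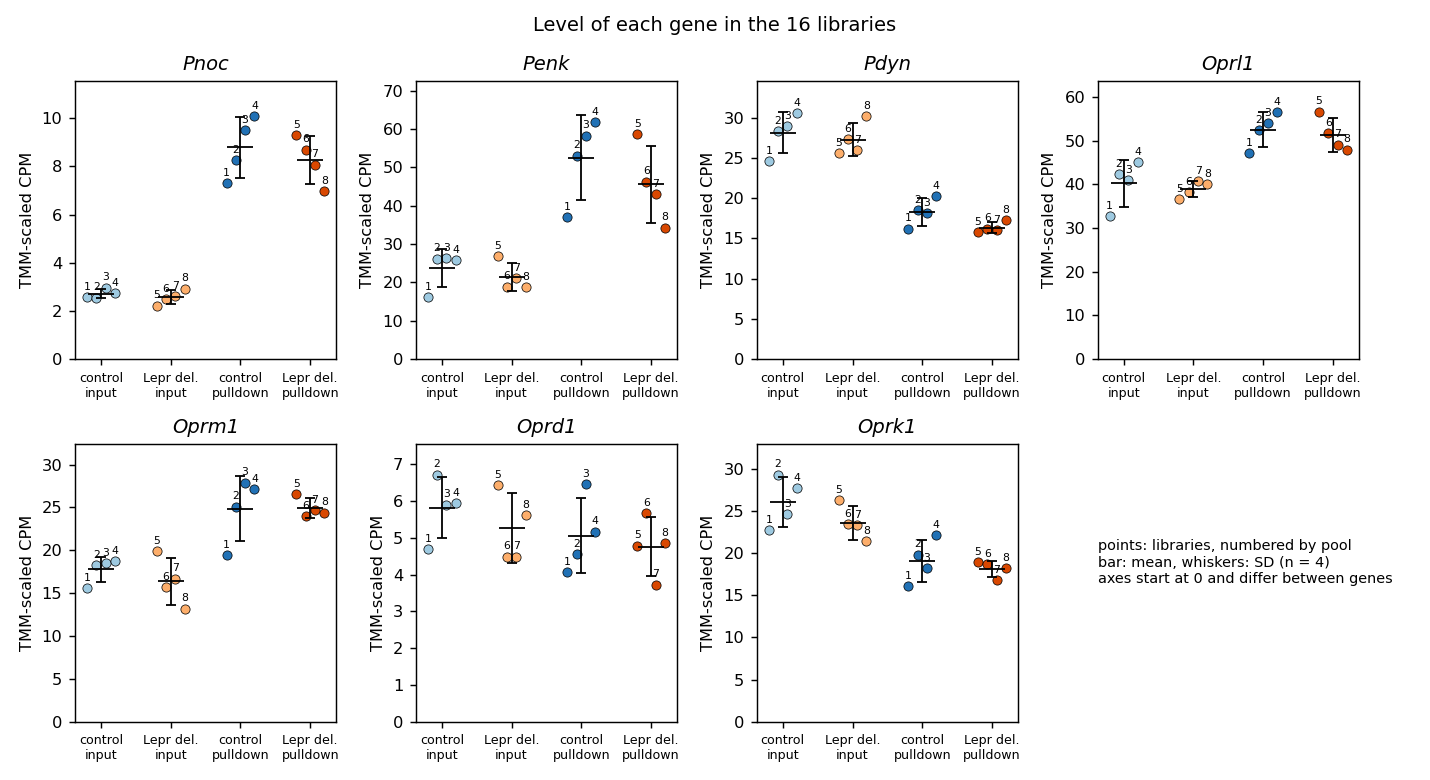
TMM-scaled CPM (y axes, from 0, a different range for each gene) of the 7 genes in the 16 libraries, by group on the x axes, with points numbered by pool and bars and whiskers for mean and SD (n = 4). Pnoc and Penk stand clear of input in every pulldown library, Oprd1 overlaps, and pool 1 is the lowest control in all 7 pulldown panels.

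Pnoc, the gene whose cells were targeted, had 2.58, 2.55, 2.97 and 2.75 CPM in the input of control pools 1 to 4 and 7.29, 8.26, 9.5 and 10.1 CPM in their pulldown. In Lepr-deletion pools 5 to 8 it had 2.22, 2.49, 2.62 and 2.92 CPM in input and 9.29, 8.7, 8.07 and 6.96 CPM in pulldown. Every pulldown library lay above every input library. The log2 fold change was 1.68 (SE 0.12, adjusted p = 2.04e-07) in controls and 1.68 (SE 0.12, adjusted p = 6.5e-08) in Lepr-deletion pools, and 99.7% of all genes had a lower value in each. Within a pool the ratio of pulldown to input ran from 2.83 to 3.66 in controls and from 2.39 in pool 8 to 4.2 in pool 5 of the Lepr-deletion mice, whose SD on the log2 scale was 0.35 against 0.15 in controls. Per transcript length Pnoc was among the least abundant of the 7 messages in input, at 1.69 ± 0.117 TPM (transcripts of a gene relative to all, corrected for length; SD, n = 4) in controls, and reached 10.7 ± 1.72 TPM in pulldown.

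Penk, the precursor of the enkephalins (GRCm38 chromosome 4, 4133536 to 4138815), had 16.2, 26.2, 26.3 and 25.8 CPM in control input and 37, 53.1, 58.3 and 61.9 CPM in control pulldown. In Lepr-deletion pools it had 26.8, 18.9, 21.1 and 18.8 CPM in input and 58.6, 46.3, 43 and 34.3 CPM in pulldown. Pool 1 was the lowest control and pool 5 the highest Lepr-deletion pool in both fractions, and input and pulldown did not overlap in either genotype. Enrichment on the log2 scale was 1.14 (SE 0.18, adjusted p = 0.00014) in controls and 1.08 (SE 0.15, adjusted p = 2.33e-05) in Lepr-deletion pools. The 8 GABAergic markers had medians of 1.03 and 1.02, close to the values of Penk. Nothing particular to PNOC neurons is read from the Penk enrichment. The ratio within a pool varied less than the levels did, from 1.02 to 1.26 on the log2 scale in controls, and with the pool as a block the SE in controls was 0.05. Of 9 tested markers of the striatum, a neighbouring region rich in Penk, 3 were higher and 2 lower in control pulldown, against 30.1% and 34.6% of all genes. In Lepr-deletion pools 3 were higher and 3 lower, against 28.8% and 32.8%. Those with the smallest p were Ppp1r1b (-3), Rgs9 (-0.59) and Scn4b (1.08) in controls. In Lepr-deletion pools they were Ppp1r1b (-3.09), Rgs9 (-0.43) and Drd2 (0.83). The summed level of the 10 listed markers, which pools such opposite moves, was 105 to 118 CPM in control input and 93.1 to 108 CPM in control pulldown. The part of striatal tissue in the Penk values was not tested. Penk was the most abundant of the 7 messages in pulldown, at 102 ± 23.4 TPM in controls and 90 ± 18.2 TPM in Lepr-deletion pools.

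Pdyn, the precursor of the dynorphins (chromosome 2, 129686549 to 129699938), went the other way. It had 24.6, 28.3, 29 and 30.6 CPM in control input and 16.2, 18.5, 18.1 and 20.3 CPM in control pulldown. In Lepr-deletion pools it had 25.6, 27.3, 26 and 30.2 CPM in input and 15.8, 16.2, 16 and 17.3 CPM in pulldown. All 4 pulldown libraries of each genotype lay below all input libraries, and the ratio within a pool was the tightest of the 7 genes, with an SD of 0.04 on the log2 scale in controls and 0.05 in Lepr-deletion pools. The log2 fold change was -0.64 (SE 0.08, adjusted p = 3.72e-05) in controls and -0.75 (SE 0.07, adjusted p = 4.78e-07) in Lepr-deletion pools. This direction is relative to the bulk of genes, which TMM sets equal. With library totals as the scale, which moved the median of all genes by 0.55 in controls, Pdyn was at -0.09 (adjusted p = 0.318), and in Lepr-deletion pools, where the shift was 0.46, it was still lower at -0.29 (adjusted p = 0.0018). On the log2(TPM + 1) scale, which moved the median by 0.93 in controls and 0.86 in Lepr-deletion pools, Pdyn was higher in control pulldown at 0.29 (limma, adjusted p = 0.00964) and at 0.1 (adjusted p = 0.211) in Lepr-deletion pools.

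Shares among the 3 precursors do not depend on that scale, but each share also moves with the other precursors. Of their summed TPM in controls, Penk made up 56.8% ± 4.43 (SD, n = 4) in input and 76.5% ± 2.5 in pulldown. Pdyn made up 39.1% ± 3.83 in input and 15.3% ± 1.95 in pulldown. Its own level was 16.2 ± 1.23 TPM in control input and 20 ± 2.2 TPM in pulldown, while Penk was at 24 ± 5.17 and 102 ± 23.4 TPM. The log2(TPM + 1) scale moved the median of all genes by 0.93 in controls, so a rise in TPM includes that shift. The smaller share of Pdyn goes with a larger share of Penk and alone does not show a lower Pdyn. Pnoc made up 4.11% ± 0.653 in input and 8.16% ± 0.642 in pulldown. The input and pulldown ranges of each share were apart in both genotypes, and the Lepr-deletion pulldown shares were 75.5% ± 3.7 for Penk, 15.8% ± 3.29 for Pdyn and 8.71% ± 0.511 for Pnoc. Among these 3 precursors, Pomc not included, Penk had the largest share and Pnoc the smallest in the pulldown of each genotype.

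**Figure D2:**
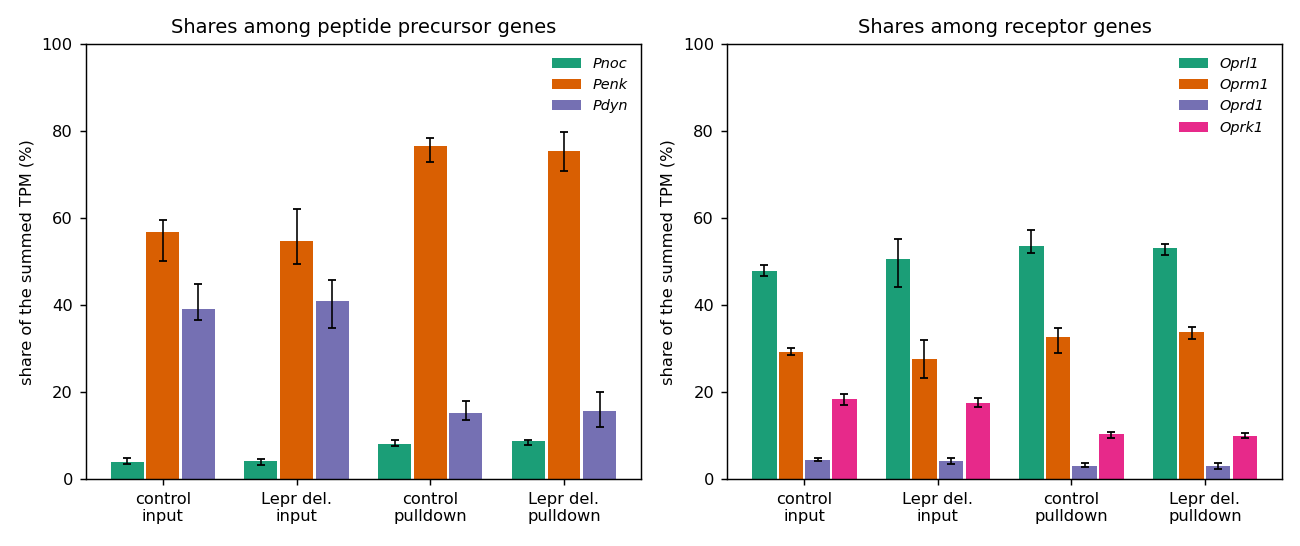
Share of the summed TPM (y axes, %) that each precursor gene (left) and each receptor gene (right) makes up in the 4 groups (x axes), with bars for the mean of 4 libraries and whiskers from the lowest to the highest library. Pdyn takes 39.1% of precursor TPM in control input and 15.3% in control pulldown, and Oprk1 18.5% and 10.5% of receptor TPM. A share moves with the other genes of its panel. The mean TPM of Pdyn and of Oprk1 was higher in control pulldown than in control input, on a scale that as log2(TPM + 1) moved the median of all genes by 0.93.

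Among the receptors, Oprl1, the receptor for nociceptin (chromosome 2, 181715000 to 181720985), had 32.7, 42.3, 41 and 45.2 CPM in control input and 47.1, 52.4, 54.1 and 56.5 CPM in control pulldown. In Lepr-deletion pools it had 36.7, 38.2, 40.8 and 40 CPM in input and 56.7, 51.8, 49.1 and 48 CPM in pulldown. The fractions did not overlap, but the gaps were small beside those of Pnoc and Penk. Its log2 enrichment was 0.36 (SE 0.09, adjusted p = 0.00469) in controls and 0.39 (SE 0.06, adjusted p = 9.26e-05) in Lepr-deletion pools. Oprl1 was the most abundant receptor message per length in every group, at 52.9 ± 4.78 TPM in control pulldown. The gene of the cells' own peptide, Pnoc, and the gene of its receptor were therefore both higher in the pulldown. For Oprl1, 79% of all genes had a lower value in controls and 84% in Lepr-deletion pools. The 8 pan-neuronal markers had medians of 0.48 and 0.53, above the values of Oprl1. Nothing particular to PNOC neurons is read from the Oprl1 enrichment.

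Oprm1, the mu opioid receptor on which enkephalins and endorphin act, had 15.6, 18.3, 18.5 and 18.7 CPM in control input and 19.4, 25.1, 27.9 and 27.1 CPM in control pulldown. In Lepr-deletion pools it had 19.9, 15.7, 16.7 and 13.2 CPM in input and 26.6, 24, 24.7 and 24.4 CPM in pulldown. The fractions did not overlap in either genotype, although pulldown of control pool 1 was only just above the highest control input library. The log2 fold change was 0.47 (SE 0.11, adjusted p = 0.00284) in controls and 0.6 (SE 0.1, adjusted p = 0.000156) in Lepr-deletion pools. Medians of the pan-neuronal markers were 0.48 and 0.53, so nothing particular to PNOC neurons is read from these values. Oprm1 lies on chromosome 10 from 6758593 to 7038209 and shares 152431 bases with Ipcef1 on the opposite strand, and Ipcef1 is given here, outside the rule for named genes, because of this overlap. The sources used here do not say whether counting used strand, so reads of this pair may be split wrongly and the Oprm1 values are uncertain. Ipcef1 itself was at -0.03 (adjusted p = 0.704) in controls and 0.03 (adjusted p = 0.646) in Lepr-deletion pools.

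Oprk1, the kappa receptor for dynorphins, had 22.7, 29.3, 24.6 and 27.7 CPM in control input and 16.1, 19.8, 18.2 and 22.1 CPM in control pulldown. In Lepr-deletion pools it had 26.3, 23.4, 23.3 and 21.4 CPM in input and 18.9, 18.7, 16.8 and 18.2 CPM in pulldown. Within each genotype every pulldown library lay below every input library, so that the dynorphin precursor gene and the dynorphin receptor gene were both lower relative to the bulk of genes. The enrichment, as a log2 fold change, was -0.47 (SE 0.11, adjusted p = 0.00208) in controls and -0.39 (SE 0.07, adjusted p = 0.000361) in Lepr-deletion pools, but it turned to 0.08 (adjusted p = 0.484) and 0.07 (adjusted p = 0.382) with library totals as the scale. With log2(TPM + 1) it was called higher, at 0.39 (limma, adjusted p = 0.00565) and 0.4 (adjusted p = 0.000502). As a share of the 4 receptors' TPM, which has no such scale, Oprk1 was 18.5% ± 1.05 in control input and 10.5% ± 0.683 in control pulldown, and 17.6% ± 0.875 and 10% ± 0.513 in Lepr-deletion pools. That share also moves with the other receptors and does not show a lower Oprk1. Its own level was 7.69 ± 0.866 TPM in control input and 10.4 ± 1.4 TPM in control pulldown. The log2(TPM + 1) scale moved the median of all genes by 0.93 in controls, so this rise includes that shift.

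Oprd1, the delta receptor that enkephalins prefer, was the least abundant of the 4 receptors, with 4.7, 6.72, 5.9 and 5.95 CPM in control input and 4.07, 4.55, 6.45 and 5.17 CPM in control pulldown. In Lepr-deletion pools it had 6.44, 4.49, 4.49 and 5.62 CPM in input and 4.79, 5.67, 3.73 and 4.85 CPM in pulldown. The fractions overlapped in both genotypes. The log2 fold change was -0.22 (95% interval -0.55 to 0.12, adjusted p = 0.228) in controls and -0.15 (-0.48 to 0.17, adjusted p = 0.403) in Lepr-deletion pools, and it was above 0 with library totals as the scale, at 0.33 (adjusted p = 0.0574) and 0.31 (adjusted p = 0.0671), and higher with log2(TPM + 1), at 0.53 (limma, adjusted p = 0.00241) and 0.52 (adjusted p = 0.00116). Without control pulldown pool 3, its highest control pulldown library, the control value was -0.35 and passed (adjusted p = 0.0488). Oprd1 encloses a transfer RNA gene of 72 bases.

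**Figure D3:**
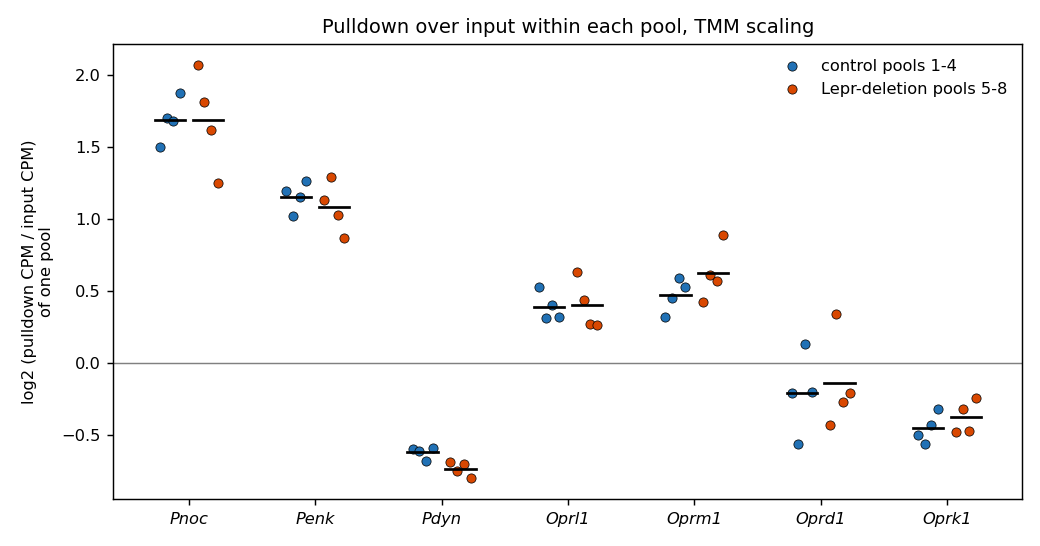
Log2 ratio of pulldown to input CPM within each pool (y axis) for the 7 genes (x axis), with points for control pools 1 to 4 and Lepr-deletion pools 5 to 8 and bars for their means, TMM scaling. Ratios of Pnoc, Penk, Oprl1 and Oprm1 are above 0 in all 8 pools and those of Pdyn and Oprk1 below 0 in all 8, the latter a direction that turns for Oprk1 with library totals and for both genes with log2(TPM + 1).

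Non-overlap of input and pulldown was common: 6 of the 7 genes did not overlap in each genotype, against 59.5% of all genes in controls and 56.4% in Lepr-deletion pools. In the order of levels per length in control input, Penk (24 ± 5.17 TPM), Oprl1 (19.8 ± 2.12) and Pdyn (16.2 ± 1.23) overlapped with their neighbours in the order. Oprm1 (12.1 ± 1) and Oprk1 (7.69 ± 0.866) followed, and Oprd1 (1.86 ± 0.255) and Pnoc overlapped at the bottom. In control pulldown the order was Penk, Oprl1, Oprm1 (32.5 ± 6.26 TPM), Pdyn (20 ± 2.2), Pnoc, Oprk1 (10.4 ± 1.4) and Oprd1 (3.16 ± 0.675), and the ranges of Pnoc and Oprk1 were the only neighbours that overlapped. The Lepr-deletion groups had the same order of means in each fraction, with Oprl1 and Pdyn apart in input.

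The second question was whether these messages differed between Lepr-deletion and control mice. In pulldown none of the 7 genes passed the test, and the libraries of the 2 genotypes overlapped for every one of them. Of all 16859 genes tested 0.641% passed and 10% did not overlap, so calls were rare among all genes too. The largest difference was that of Penk, at -0.2 on the log2 scale (95% interval -0.57 to 0.17, adjusted p = 0.561), followed by Pdyn at -0.15 (-0.31 to 0.01, adjusted p = 0.279). Pnoc was at -0.08 (-0.33 to 0.18, adjusted p = 0.761), Oprd1 at -0.08 (-0.42 to 0.27) and Oprk1 at -0.06 (-0.26 to 0.14). Oprl1 at -0.02 (-0.17 to 0.13) and Oprm1 at 0.01 (-0.21 to 0.24) had the smallest differences. These intervals do not show that levels were alike, and for Penk and Oprd1 they still hold differences beyond 0.4 on the log2 scale. The count at an unadjusted p under 0.05 was also 0 of 7, but no share over all genes was counted at that p. The same 0 came from DESeq2, which called 1052 of all genes.

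In input none of the 7 genes passed either, against 0.231% of all 17735 genes, and all of them overlapped, where 6.88% of all genes did not. All 7 estimates were below 0, from -0.15 for Penk (95% interval -0.46 to 0.17, adjusted p = 0.706) and for Oprd1 (-0.46 to 0.16) to -0.04 for Pdyn (-0.2 to 0.12). Oprk1 was at -0.14 (-0.33 to 0.04) and Oprm1 at -0.12 (-0.35 to 0.11). None of the 7 had an unadjusted p under 0.05 (0 of 7, again without a share over all genes), nor a call with DESeq2, which called 369 of all genes. Oprl1 at -0.05 and Pdyn turned to 0.02 with library totals as the scale, so this shared sign is not stable.

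**Figure D4:**
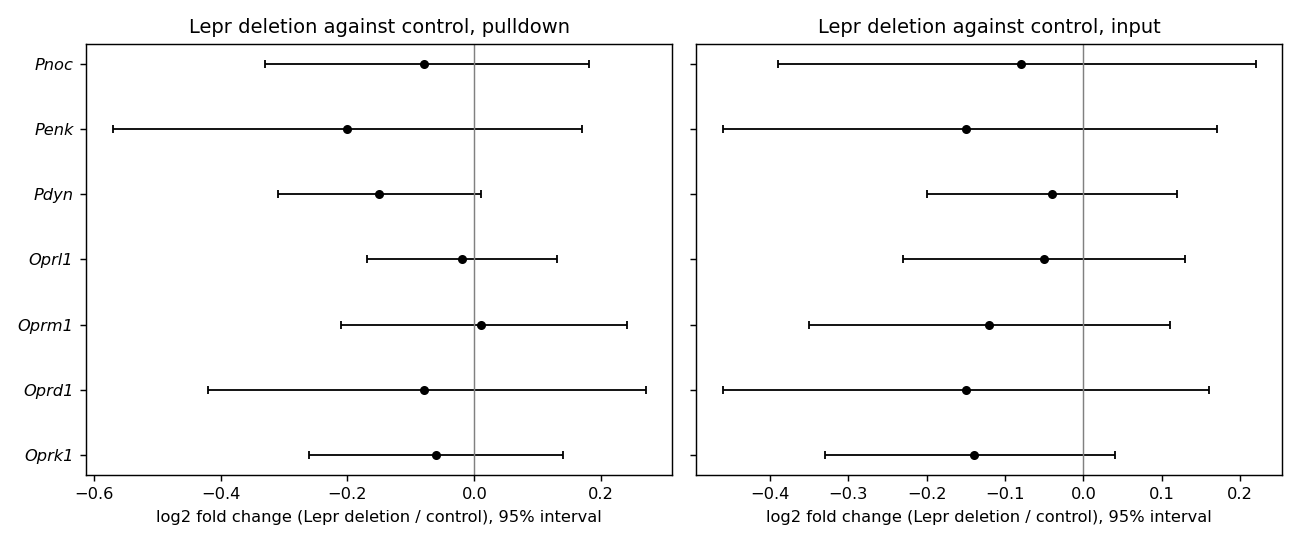
Log2 fold change of Lepr deletion over control (x axes) for the 7 genes (y axis) in pulldown (left) and input (right), as points with 95% intervals from edgeR, 4 against 4 libraries, TMM scaling. Every interval includes 0, from Penk at -0.2 in pulldown and -0.15 in input to Oprm1 at 0.01 in pulldown. With library totals as the scale Oprm1 turned to -0.01 in pulldown and Oprl1 and Pdyn to 0.02 in input.

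The genotype values of Penk rested on pools 1 and 5. With both pools left out, Penk was lower in Lepr-deletion mice by -0.48 (SE 0.09, adjusted p = 0.00372) in pulldown, 1 of 7 genes, where 19.9% of all genes passed and 10.5% were lower. In input 3 of 7 genes were then lower, Penk at -0.41 (adjusted p = 0.00155), Oprm1 at -0.28 (adjusted p = 0.0494) and Oprk1 at -0.26 (adjusted p = 0.0337), where 11% of all genes passed and 6.67% were lower. Pool 1 was the lowest control and pool 5 the highest Lepr-deletion pool for each of these genes and fractions, so leaving them out could only move the differences down, and no evidence on the deletion is drawn from these values. Leaving out any single library gave 0 of 7 genes in either fraction. The values of Penk in pulldown then ran from -0.35 to -0.1.

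The third question was whether the pulldown enrichment itself differed between genotypes. None of the 7 genes passed by edgeR or DESeq2, and none (0 of 7) was under 0.05 before adjustment, again without a share over all genes. Calls were rare among all genes too, 0.0108% of 18530 by edgeR and 20 genes by DESeq2. The difference of log2 enrichment, Lepr deletion minus control, was -0.01 for Pnoc (95% interval -0.36 to 0.35, adjusted p = 0.999), -0.06 for Penk (-0.59 to 0.47) and 0.12 for Oprm1 (-0.21 to 0.45). These intervals do not use the pairing of input and pulldown within a pool. With the pool as a block they were -0.37 to 0.36 for Pnoc, -0.26 to 0.11 for Penk and -0.07 to 0.35 for Oprm1. Values without the block follow for the other receptors. Oprl1 was at 0.02, Oprd1 at 0.06 and Oprk1 at 0.07. Pdyn was the 1 gene of the 7 whose pool ratios did not overlap, from -0.68 to -0.59 on the log2 scale in controls and from -0.8 to -0.69 in Lepr-deletion pools, where 6.48% of all genes did not overlap. Its difference of -0.12 (-0.34 to 0.11) did not pass (adjusted p = 0.775, and adjusted p = 0.489 with the pool as a block).

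The authors' deposited table of DESeq2 comparisons gave Pnoc a log2 enrichment of 1.69 in both genotypes. Its values for Penk in the authors' deposited table were 1.15 in controls and 1.1 in Lepr-deletion pools, with a genotype difference of -0.2 in pulldown (adjusted p = 0.637). For Pdyn the authors' deposited table gave -0.62 and -0.73.

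Enzymes that cut and trim the precursors were tested next, as 10 genes of which 5 were higher and 3 lower in pulldown in each genotype, with medians of 0.21 and 0.12 against -0.02 and -0.01 for all genes. Beside these and the next list counts stand the shares over all genes, 30.1% higher and 34.6% lower in controls and 28.8% and 32.8% in Lepr-deletion pools, all with TMM. Pcsk2, the prohormone convertase that cuts within neuropeptide precursors, was at 0.61 (SE 0.07) in controls and Pcsk1n, which encodes proSAAS, an inhibitor of a related convertase, at 0.66 (SE 0.09). Cpe, the carboxypeptidase that trims the cut ends, was at -0.87 (SE 0.06). Pam, which amidates peptide ends, was at 0.46 (SE 0.05) in Lepr-deletion pools. Of 10 peptide-degrading enzymes 3 were higher and 1 lower in controls, and 1 higher and 2 lower in Lepr-deletion pools, at or below those shares. Mme, or neprilysin, which cleaves enkephalins, was at 1.04 (SE 0.08) in controls and 0.96 (SE 0.11) in Lepr-deletion pools, beside Penk at 1.14 and 1.08.

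Genes downstream of the receptors were set against 30.1% of all genes higher in controls and 28.8% in Lepr-deletion pools. Subunits, effectors and regulators all had more calls of higher. Of 13 Gi/o subunits 10 were higher and 2 lower in each genotype (medians 0.31 and 0.34), among them Gnao1, the Go alpha subunit, at 0.62 (SE 0.04) in controls, Gng3 at 0.72 (SE 0.04) and Gnaz at 0.53 (SE 0.03). Of 17 effectors 7 were higher and 2 lower in controls and 8 and 3 in Lepr-deletion pools. Their median of 0.08 in each was nearer to that of all genes (-0.02 and -0.01) than the medians of the subunits. Kcnj9 and Kcnj3, subunits of the potassium channels these receptors open, were at 0.78 (SE 0.05) and 0.72 (SE 0.04) in controls. Kcnj5 and Kcnj6, of the same channels and given outside the rule for named genes, did not pass in controls. They were at 0.08 (SE 0.09) and -0.09 (SE 0.09). Of 16 regulators tested 11 were higher and 4 lower in controls and 11 and 5 in Lepr-deletion pools (medians 0.45 and 0.42), including Rgs8 at 0.82 (SE 0.04), Rgs10 at 0.91 (SE 0.05) and Rgs4 at 0.85 (SE 0.07, Lepr-deletion pools), which shorten G protein signals. Rgs19, another of these and a near neighbour of Oprl1 on chromosome 2 with no overlap, was at 0.59 in controls. Since 7 of 8 pan-neuronal markers were higher too, with a median of 0.48 in controls, nothing particular to opioid signalling is read from these counts.

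Of 8 tested genes of other opioid-related peptides and receptors, 1 was higher and 3 lower in controls and 1 and 4 in Lepr-deletion pools, where 34.6% and 32.8% of all genes were lower, so no direction of the list is read from this. Pomc, the precursor of beta-endorphin made in other arcuate neurons, was at -1.14 (SE 0.13) in controls and -1.55 (SE 0.07) in Lepr-deletion pools. Npvf, a precursor of RFamide peptides, was at -2.53 (SE 0.26) and -1.88 (SE 0.17). Between genotypes 1 gene of these pathway lists passed, where 0.641% of all genes passed in pulldown and 0.231% in input. Kcnj3 was lower in Lepr-deletion mice both in pulldown (-0.3, SE 0.06, edgeR adjusted p = 0.0487) and in input (-0.33, SE 0.06, edgeR adjusted p = 0.0299). The pulldown value was only just under the threshold, and nothing about the lists is read from 1 gene. No gene of any of the lists passed in the difference of enrichment, where 0.0108% of all genes did.

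**Figure D5:**
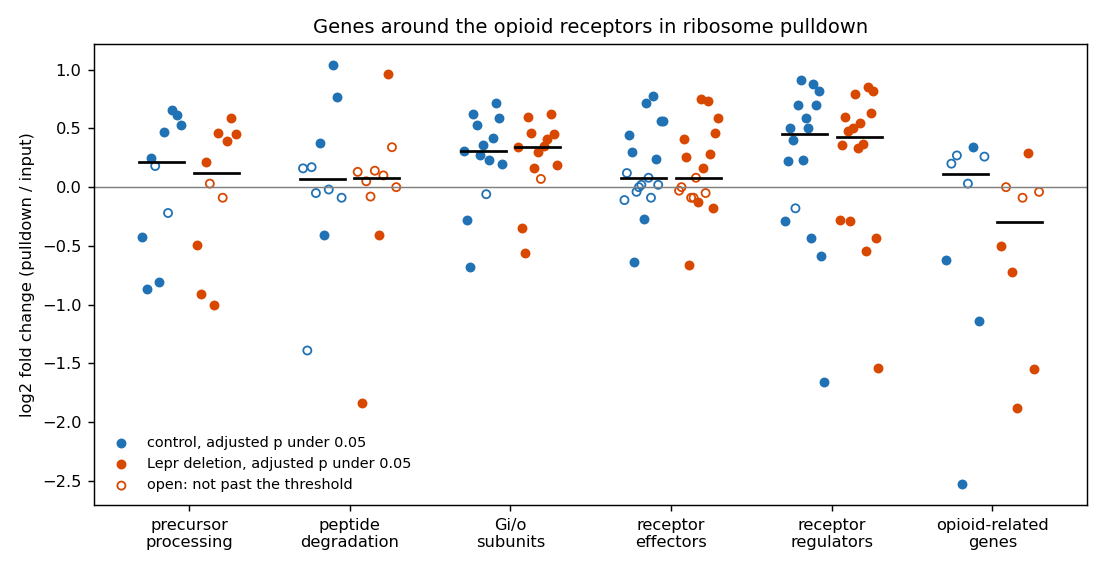
Log2 fold change of pulldown over input (y axis) for the genes of 6 pathway lists (x axis) in controls and Lepr-deletion pools, with filled points for adjusted p under 0.05, open points otherwise and bars for list medians, TMM scaling. Regulators have medians of 0.45 and 0.42 and Gi/o subunits 0.31 and 0.34, and library totals as the scale would raise all points by a shift of 0.55 in controls and 0.46 in Lepr-deletion pools at the median gene.

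The genes most like each of the 7 were found among 11464 other genes by the root mean square difference of centred log2 CPM over the 16 libraries. Penk was nearest to Slc32a1, the vesicular GABA transporter (0.123), then Tm2d3 (0.143) and Syngr3 (0.153), against its own SD of 0.65. Pnoc, with an SD of 0.87, was nearest to Dgkq (0.23), Gal, the galanin precursor (0.252), and Onecut3 (0.265). Oprl1 was nearest to Eri3 (0.053), Atcay (0.055) and Tgoln1 (0.069), and Oprm1 to Fstl5 (0.083), Cntnap2 (0.097) and Lrrtm3 (0.097). Pdyn was nearest to Kdelc2 (0.081), Slain1 (0.086) and AI987944 (0.092). Oprk1 was nearest to Zdhhc21 (0.081), Esyt2 (0.091) and Ghr, the growth hormone receptor (0.092). Oprd1 was nearest to Vangl2 (0.153), Slc30a1 (0.156) and Slc22a15 (0.163). All of these points share libraries and depth, and the measure is a description.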

How the data were processed

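The submitters' processing notes list Salmon 1.10.1, DESeq2 1.38.3 and the build GRCm38. Annotation release, trimming and strand setting are not given in the sources used here. The authors deposited estimated counts per gene, the same counts scaled for gene length, TPM, and a table of log2 fold changes with adjusted p-values for 4 comparisons. The main test on the rounded estimated counts was quasi-likelihood testing in edgeR 4.0.16 under R 4.3.3, with TMM scaling, filterByExpr (minimum count 10, minimum total 15) and two-sided Benjamini-Hochberg adjustment at 0.05 over all genes. Each comparison of a pair of groups used its 8 libraries, and the difference of enrichment used all 16. SE is the log2 fold change over the root of F, and 95% intervals use the fit's degrees of freedom. The scripts were tested on simulated data. The spread behind p-values is that between pools of animals. Depth was 64435952 to 78623636 counts per library, and the level of 3 counts taken as a floor covers counting error only.

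Input and pulldown of a pool come from 1 lysate per the labels' protocols, which pairs them. Deviations from group means correlated within pools at 0.0944 to 0.6, above 0.1 in 7 of 8. In 6 of 8 pools the input correlated best with its own pulldown. In pools 2 and 7 it correlated better with the pulldown of another pool of its genotype. The pool block was an alternative. Others were RLE factors, library totals, no filter, a mean of at least 1 CPM, DESeq2 1.42.0, length-scaled counts, limma 3.58.1 on log2(TPM + 1) and log2(TPM + 0.1), removal of mitochondrially encoded genes, a Y-linked covariate in genotype fits, 1 fit of all libraries, each library left out, and pools 1 and 5 left out. The genes, the gene lists and the choice of pools 1 and 5 were made with earlier results of these data known. Genes named are the 7 genes described, up to 3 genes with the smallest p of a list and comparison, Lepr, Rpl10a and Rgs19, and the 3 genes nearest to each of the 7. Sequences are RefSeq promoters. Rpl10a, whose protein was tagged, was at 0.25 on the log2 scale in control pulldown against input.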

Additional observations from a re-analysis of the deposited data

Results flagged for a closer look

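In control input, Penk of pool 1 stood apart from the other 3 pools, at 16.2 CPM against 25.8 CPM for the nearest and a gap of 0.947 of the group's range, above Dixon's 95% critical value for 4 libraries. Oprm1 of the same library stood apart too, at 15.6 CPM against 18.3 CPM, a gap of 0.869 of the range. These were 2 of 28 groups of 4 libraries looked at, and chance alone marks about 1 in 20.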

How the results depend on the processing

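The calls of Pnoc, Penk, Oprl1 and Oprm1 in both enrichments held under every setting run, and no single library left out gave a call in a genotype comparison. Values are log2 fold changes. With library totals the median of all genes moved by 0.55 in controls and 0.46 in Lepr-deletion pools, and the enrichment of Oprd1 turned to 0.33 and 0.31 and of Oprk1 to 0.08 and 0.07, while Pdyn was -0.09 (adjusted p = 0.318) in controls and -0.29 (adjusted p = 0.0018) in Lepr-deletion pools. Calls of the 7 genes were then 4 higher and 0 lower, and 4 and 1. With log2(TPM + 1) the median moved by 0.93 and 0.86, and Pdyn turned to 0.29 and 0.1, Oprd1 to 0.53 and 0.52 and Oprk1 to 0.39 and 0.4. With log2(TPM + 0.1), and a median shift of 0.98 and 0.9, they were 0.3 and 0.11, 0.72 and 0.72, and 0.43 and 0.44. On both TPM scales these turned values passed as higher, except Pdyn in Lepr-deletion pools (adjusted p = 0.211 and 0.208), so that 7 and 6 genes were higher and 0 lower. The genotype difference of Oprm1 in pulldown turned to -0.01 with library totals, -0.12 without pools 1 and 5 and -0.03 with the Y-linked covariate. In input, library totals turned Oprl1 and Pdyn to 0.02 each, log2(TPM + 1) turned Pnoc to 0.01, Oprl1 to 0.08 and Pdyn to 0.06, and log2(TPM + 0.1) turned them to 0.01, 0.09 and 0.06. The difference of enrichment was 0 for Pnoc with RLE factors and with DESeq2, and 0.01 without mitochondrially encoded genes. For Oprl1 it was -0.07 with library totals, -0.02 with length-scaled counts and without pools 1 and 5, and -0.09 with both TPM scales. For Oprd1 it was -0.02 with library totals and -0.01 and 0 with the TPM scales, and for Oprk1 -0.01 with library totals. The cause was not tested, and none of these turned genotype values was past the threshold.

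Without pools 1 and 5, 1 gene passed in pulldown and 3 in input. With 1 library left out, 6 to 7 genes passed in control enrichment, 6 in Lepr-deletion enrichment and 0 in the others. Genotype differences in pulldown then ran from -0.08 to 0.02 for Oprl1, -0.09 to 0.08 for Oprm1, -0.18 to 0.06 for Oprd1 and -0.14 to 0.02 for Oprk1, and in input from -0.14 to 0 for Oprl1. The difference of enrichment ran from -0.09 to 0.07 for Pnoc, -0.05 to 0.08 for Oprl1, -0.2 to 0.06 for Penk, -0.04 to 0.2 for Oprd1 and 0 to 0.15 for Oprk1. With the pool as a replicate block 6, 6 and 0 genes passed in the enrichments and their difference, and no call of the 7 genes changed.

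Calls over all genes moved more. In pulldown genotype, against 108, they were 266 with no filter, 1052 with DESeq2, 16 with length-scaled counts, 30 and 22 with the TPM scales, 29 with the covariate, 508 in 1 fit of all libraries and 19 to 1262 with 1 library left out. In input, against 41, they were 108 with library totals, 261 with no filter, 369 with DESeq2, 11 with length-scaled counts, 22 and 20 with the TPM scales, 246 with the covariate and 19 to 402 with 1 library left out. Without pools 1 and 5 they were 3363 and 1957, and 87 for the difference of enrichment, against 2 with all pools. For that difference RLE factors, library totals and the block gave 4 each, no filter 6, DESeq2 20, length-scaled counts 0, log2(TPM + 1) 6 and 1 library left out 1 to 5. Counts of 121 to 184 for Pnoc in input limit its precision.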
